A study of Mus musculus with 20 samples.

Results

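The genes described here are the 7 mouse genes of the MHC class II pathway named Cd74, H2-Aa, H2-Ab1, H2-Eb1, H2-DMa, H2-DMb1 and Ciita. They were taken by name from the columns of 4 single-cell RNA tables that share 28029 usable genes, and all 7 were present in every table. OT-I CD8 T cells, which carry a transgenic receptor for an ovalbumin peptide, had been given to mice with B16-OVA tumours, an ovalbumin-producing melanoma, and cells labelled as tumour-infiltrating CD8 T cells were collected 8 days later. The 4 groups were Tet2-/- OT-I cells with an antibody against PD-L1 (KO anti-PD-L1), Tet2-/- OT-I cells without it (KO untreated), wild-type OT-I cells with the antibody (WT anti-PD-L1) and wild-type OT-I cells without it (WT untreated). Each group was 1 library. The genotype is that of the transferred T cells, so macrophages, dendritic cells and melanoma cells belong to the host or the tumour, whose genotype, number of animals and antibody dose the labels do not give.

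KO and WT below stand for the genotype written on the label. Tet2, which encodes an enzyme that oxidises methylated cytosine in DNA, was not lower in the CD8 T cells of the KO-labelled libraries, at 17.9 CPM in KO anti-PD-L1, 23.0 CPM in KO untreated, 15.8 CPM in WT anti-PD-L1 and 13.4 CPM in WT untreated. The labels do not give the deleted stretch, and a 3′ tag that lies outside a deletion does not check it. CPM is the gene's UMIs, summed over the cells of a class in a library, per 1000000 UMIs of those cells, where a UMI is a random tag that counts each captured molecule singly. The chemistry tags each transcript once near its 3′ end, so CPM was not scaled by length. Intervals are exact 95% ones and cover counting error only, and with 1 library per group no difference between groups carries a p-value.

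MHC class II molecules carry peptides from endosomes to the cell surface, where CD4 T cells read them. H2-Aa and H2-Ab1 encode the α and β chains of I-A, and H2-Eb1 encodes the β chain of I-E. Cd74 encodes the invariant chain, a chaperone that fills the peptide groove until H2-DM, built from H2-DMa and H2-DMb1, exchanges its remnant for peptide. Ciita encodes the coactivator that sets transcription of the others. It does not bind DNA itself but docks on factors that sit on conserved upstream boxes, and interferon-γ induces it in many cell types. Dendritic cells present constitutively, tissue macrophages to a varying degree, and many tumour cells only under interferon-γ. Mouse T cells are known to make little class II.

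These boxes can be read in the stretch of 120 bases before the annotated start of the members below, shown because they link genes that were measured together here. The sequences are from RefSeq on GRCm38.p6. Capitals mark TGATTGG, the inverted form of the CCAAT box that NF-Y binds (Y box), and, upstream of it, either AACTGATGATGCT, the longest run that the bases of H2-Eb1 and H2-DMb1 share, searched for after the sequences had been read, or TGACGTCA, the full cyclic AMP response element.
H2-Aa: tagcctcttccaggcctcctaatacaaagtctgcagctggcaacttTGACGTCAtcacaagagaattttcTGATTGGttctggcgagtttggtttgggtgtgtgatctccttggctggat
H2-Eb1: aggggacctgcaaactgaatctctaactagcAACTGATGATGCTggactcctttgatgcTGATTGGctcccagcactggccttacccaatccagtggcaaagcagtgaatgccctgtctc
H2-DMb1: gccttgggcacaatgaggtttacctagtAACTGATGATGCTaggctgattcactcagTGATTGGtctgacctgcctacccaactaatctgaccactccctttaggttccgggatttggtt
They lie at chr17:34287824-34287943 on the minus strand for H2-Aa, at chr17:34305747-34305866 on the plus strand for H2-Eb1 and at chr17:34153071-34153190 on the plus strand for H2-DMb1. TGATTGG began 50 bases before the start of H2-Aa, 61 before that of H2-Eb1 and 63 before that of H2-DMb1. Between the upstream run and TGATTGG lay 16 bases in H2-Aa, 15 in H2-Eb1 and 16 in H2-DMb1. Over both strands of the 250 bases before the start in all 32851 windows of the same table, TGATTGG occurred in 2375 (7.23%), TGACGTCA in 508 (1.55%) and AACTGATGATGCT in 2, which are those of H2-Eb1 and H2-DMb1. The windows of both H2-DMa starts held none of the 3 runs. A match is a description of these letters only. H2-Ab1 and Ciita had no window in that table.

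On the same build, H2-DMa (chr17:34119693-34139101), H2-DMb1 (chr17:34153191-34160229), H2-Ab1 (chr17:34263227-34269418), H2-Aa (chr17:34282744-34287823) and H2-Eb1 (chr17:34305867-34316674) lie in a row in the class II region. Cd74 lies at chr18:60803849-60812652 and Ciita at chr16:10480014-10531064. H2-DMb1, H2-DMa and Ciita share sequence or bases with another gene, and the strand used for counting is not given in the sources used here. H2-DMb1 has a close paralog, H2-DMb2, so reads may be split between the pair. The annotated H2-DMa overlaps Brd2 at its 5′ end and Ciita overlaps Dexi at its 3′ end, so UMIs of these pairs cannot be told apart where they overlap.

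Cells were put into classes by clustering without any class II gene, and classes were named from marker genes that include none of them. Of 7398 cells kept, the dendritic-like class held 9 in KO anti-PD-L1, 43 in KO untreated, 13 in WT anti-PD-L1 and 14 in WT untreated, the macrophage-like class 136, 283, 113 and 176, the melanoma-like class 50, 190, 69 and 929, and the CD8 T class 1028, 1551, 1320 and 1123, in the same order of libraries. Melanoma-like cells were 3.92% of KO anti-PD-L1, 8.55% of KO untreated, 4.30% of WT anti-PD-L1 and 40.4% of WT untreated, which stands apart in this. The tables used held 11835704 to 16209103 UMIs, the median depth of kept cells was 4715 to 7473 UMIs, and any pair of libraries shared 1 to 10 barcodes. Summed over the 11 macrophage markers, macrophage-like cells held 41445 to 46052 CPM, melanoma-like cells 739 to 1098 CPM and CD8 T cells 44.5 to 58.6 CPM. Summed over the 14 dendritic markers, dendritic-like cells held 2572 to 4456 CPM and macrophage-like cells 380 to 494 CPM. Dendritic-like cells also held 3988, 3792, 1828 and 1143 CPM of the 5 monocyte markers, in the same order of libraries. Macrophage-like cells held 698 to 1412 CPM of these. In KO untreated the 3792 CPM exceeded the 2572 CPM of dendritic markers in the same cells. Of the T cell markers, dendritic-like cells held 773, 496, 33.7 and 125 CPM. Melanoma-like cells held 17233 to 19855 CPM of the 9 melanoma markers, and CD8 T cells 10126 to 11798 CPM of the 8 T cell markers. The label names CD8 T cells only, so the other classes are what came with them.

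Of these 4 classes, dendritic-like cells held the highest levels of 6 members in every library, followed by macrophage-like cells, melanoma-like cells and CD8 T cells. The small monocyte-like class, left out of these comparisons, read higher than dendritic-like cells in both KO-labelled libraries for Cd74 (32094 and 29959 CPM, against 22994 and 26451 CPM) and H2-Ab1 (16388 and 14820 CPM, against 12168 and 13144 CPM). In KO anti-PD-L1 the unnamed myeloid cells also read higher in Cd74, at 25792 CPM. Cd74 averaged 26236 ± 2413 CPM in dendritic-like cells, 14689 ± 3078 CPM in macrophage-like cells, 1871 ± 979 CPM in melanoma-like cells and 44.0 ± 32.5 CPM in CD8 T cells (SD, n = 4 libraries of 4 different groups). The classes did not overlap in Cd74. For the 7 members and the 3 pairs of classes without dendritic-like cells, 21 of 21 comparisons went the same way in all 4 libraries. With dendritic-like cells included at a minimum of 5 cells, chosen after the data were seen because only KO untreated passed the planned 20, 20 of 21 did. The exception was Ciita in dendritic-like over macrophage-like cells, higher in 3 of 4 libraries. Each of the 41 uniform comparisons gave p = 0.125 in an exact two-sided sign-flip permutation test within libraries, the smallest p that 4 libraries allow. The classes were cut from other genes of the same cells, so these values describe the classes. The share of all genes with the same direction in every library was not computed, so these counts do not set the members apart.

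**Figure D1:**
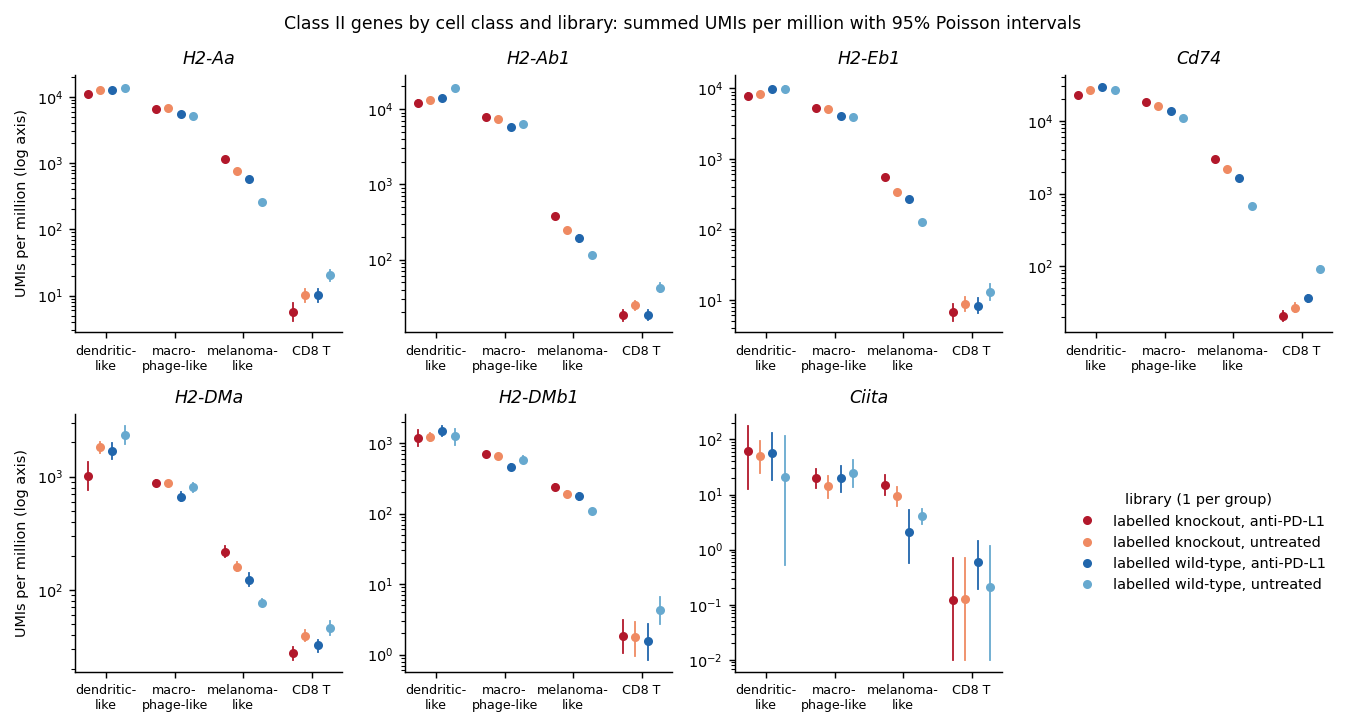
CPM on a log axis (vertical) of the 7 members in dendritic-like, macrophage-like, melanoma-like and CD8 T cells, 1 point per library, with exact 95% counting intervals. The 4 libraries of a class lie close together in dendritic-like and macrophage-like cells, and those of melanoma-like cells spread wider, with Cd74 between 671 and 3005 CPM.

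The I-A β chain, H2-Ab1, was read at 12168 CPM in KO anti-PD-L1, 13144 CPM in KO untreated, 14145 CPM in WT anti-PD-L1 and 18862 CPM in WT untreated dendritic-like cells. In the macrophage-like cells of these libraries it was read at 7951, 7377, 5793 and 6422 CPM. The lowest dendritic-like value exceeded the highest macrophage-like one, and the mean within-library difference was 1.07 ± 0.43 on the log2 scale (SD, n = 4). The α chain, H2-Aa, ran at 10927 to 13378 CPM in dendritic-like cells, against 5062 to 6674 CPM in macrophage-like cells. The I-E β chain, H2-Eb1, ran at 7773 to 9784 CPM, against 3975 to 5286 CPM. The ranges of these 3 chains did not overlap between both classes, nor did that of Cd74. How many of all genes have ranges without overlap was not computed. The exchange factor was lower in absolute terms. H2-DMa ran at 1017 to 2347 CPM in dendritic-like cells, against 666 to 885 CPM in macrophage-like cells, and H2-DMb1 at 1180 to 1492 CPM, against 456 to 700.0 CPM. Across the 7 members the mean difference of dendritic-like over macrophage-like cells lay between 0.86 (Cd74) and 1.13 (Ciita) on the log2 scale.

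The coactivator was far scarcer than its targets. Ciita gave 3 UMIs in KO anti-PD-L1, 10 in KO untreated, 5 in WT anti-PD-L1 and 1 in WT untreated dendritic-like cells, which is 61.0, 50.6, 56.1 and 20.8 CPM. In macrophage-like cells it gave 27, 20, 15 and 14 UMIs, or 20.04, 14.02, 19.8 and 25.1 CPM. In melanoma-like cells it gave 24, 28, 4 and 41 UMIs, or 15.2, 9.37, 2.09 and 4.02 CPM. The intervals of dendritic-like and macrophage-like cells overlapped in every library but KO untreated, where they ran from 24.3 to 93.1 CPM and from 8.57 to 21.7 CPM, so in the other 3 an order between the 2 classes was not detectable at this depth.

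The 79 dendritic-like cells were not alike. Pooled over libraries, the 25 cells with a UMI of Xcr1 or Clec9a, markers of cross-presenting dendritic cells, held 29100 CPM of Cd74 and 16161 CPM of H2-Ab1. The 13 cells with at least 5 UMIs of Ccr7 and Fscn1 summed, markers of migrating dendritic cells, held 21771 CPM of Cd74, 9058 CPM of H2-Ab1 and 14003 CPM of H2-Aa. The 8 cells with plasmacytoid markers held 10365 CPM of Cd74, 1567 CPM of H2-Ab1 and 2089 CPM of H2-Aa. Plasmacytoid cells thus gave the lowest reading of all 4 groups for these 3 genes, and the remaining 33 cells, at 29198 CPM of Cd74, read close to the Xcr1 or Clec9a cells. C1qa, a complement gene of macrophages, stood at 183 CPM in KO anti-PD-L1, 76.0 in KO untreated, 11.2 in WT anti-PD-L1 and 582 in WT untreated dendritic-like cells, and its part in their values was not tested.

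Among macrophage-like cells the members varied by subcluster. Pooled over libraries, Cd74 ran from 6824 CPM in subcluster 4 (136 cells, led by Mmp12 and Arg1) to 25138 CPM in subcluster 3 (58 cells, led by Gbp2b and Ms4a7), and H2-Ab1 from 2615 CPM to 12961 CPM in the same pair. Subcluster 14, in which Cxcl9 reached 1846 CPM, held 24628 CPM of Cd74 and 10967 CPM of H2-Ab1. Subcluster 4 was low in each library, at 8769 CPM of Cd74 in KO anti-PD-L1, 6653 in KO untreated, 6200 in WT anti-PD-L1 and 5684 in WT untreated. Subcluster 2 held 12367 CPM of Cd74, and 85 of its 92 cells came from WT untreated.

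Macrophage-like cells with at least 1 UMI of Cxcl9, an interferon-γ-induced chemokine, held more of 6 members than cells without one in all 4 libraries, after every cell had been thinned to 2000 UMIs. Cd74 was 22180 CPM in Cxcl9+ and 11664 CPM in Cxcl9- cells of KO anti-PD-L1, 20514 and 11007 CPM in KO untreated, 15730 and 11421 CPM in WT anti-PD-L1, and 14640 and 9243 CPM in WT untreated. The mean difference of Cxcl9+ over Cxcl9- cells was 0.74 ± 0.22 for Cd74, 0.80 ± 0.26 for H2-Aa, 0.85 ± 0.26 for H2-Ab1 and 0.85 ± 0.17 for H2-Eb1 on the log2 scale (SD, n = 4, exact two-sided sign-flip permutation p = 0.125 for each, the smallest possible). H2-DMa differed by 0.78 ± 0.08 and H2-DMb1 by 0.92 ± 0.42 (same test and p), and Ciita was higher in 3 of 4 libraries (exact permutation p = 0.625). C1qa, a gene of macrophage identity, was also higher in Cxcl9+ cells in 4 of 4 libraries, by 0.49, and the part of cell identity in the members' values was not tested. The share of all genes higher in Cxcl9+ cells in every library was not computed.

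**Figure D2:**
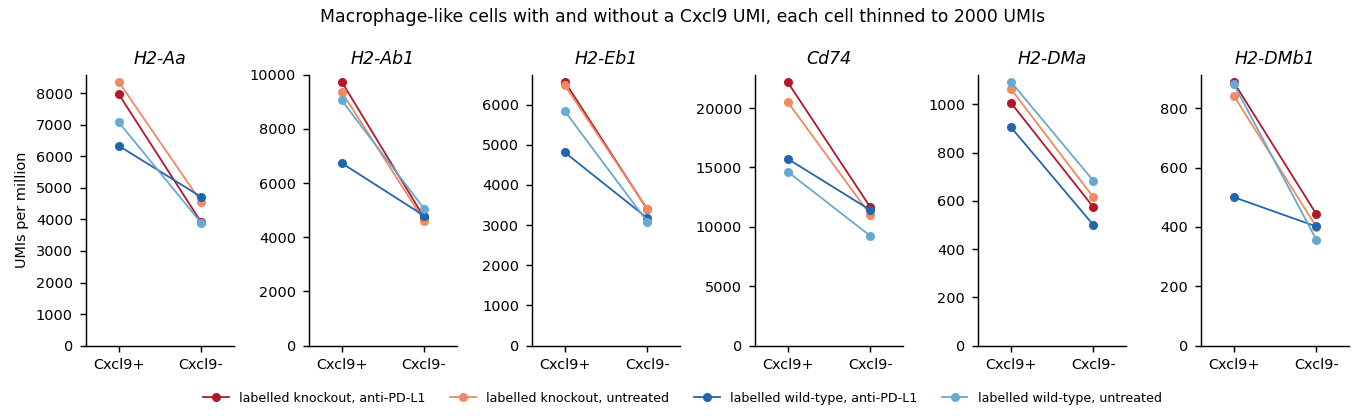
CPM (vertical axis, from 0) of the members other than Ciita in macrophage-like cells with and without a Cxcl9 UMI after thinning to 2000 UMIs, joined within each of the 4 libraries. Every line of the 6 members is higher on the Cxcl9+ side, for instance Cd74 at 22180 against 11664 CPM in KO anti-PD-L1.

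Between libraries, few differences of class II genes in macrophage-like cells reached the size set for a call. A difference was called when the gene averaged at least 20 CPM over the 4 libraries of the class and differed by at least 1.5-fold. The 4 contrasts share libraries, each library standing in 2 of them. Ciita, at a mean of 19.7 CPM, was under the level limit. Of the other 6 members, 1 was called in 1 contrast, H2-DMb1 in KO over WT with anti-PD-L1, at 700.0 against 456 CPM (0.62 on the log2 scale, interval 0.44 to 0.80). Among the 4588 genes tested, 10.0% were called higher in that contrast, 13.1% in KO over WT untreated, 13.9% in anti-PD-L1 over untreated in WT and 7.35% in anti-PD-L1 over untreated in KO, so 1 call among 24 does not set the members apart from that background. The H2-DMb1 call was lost under 6 alternatives, with log2 ratios from 0.42, with the other listing of the barcodes, to 0.58, with median-of-ratios size factors. No member was called with the other listing or at resolution 2.0. Under the rest of these alternatives another member or contrast was called. Melanoma markers summed in macrophage-like cells to 64.6 CPM in KO anti-PD-L1, 101 in KO untreated, 100.4 in WT anti-PD-L1 and 301 in WT untreated. Set against the other myeloid cells, subcluster 0 was led by haemoglobin genes, and Dct, a melanoma gene, was among the leading genes of subcluster 2. The part of these in the contrasts was not tested. Without subcluster 2, 3 calls were made, with Cd74 (0.73) and H2-Aa (0.60) added in KO over WT untreated.

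The values of Cd74 in macrophage-like cells were 18035 CPM in KO anti-PD-L1, 16205 CPM in KO untreated, 13505 CPM in WT anti-PD-L1 and 11011 CPM in WT untreated. Both KO-labelled libraries lay above both WT-labelled ones, with log2 ratios of 0.56 without (interval 0.52 to 0.60) and 0.42 with anti-PD-L1 (0.38 to 0.45). H2-Ab1 differed by 0.20 and 0.46, H2-Aa by 0.40 and 0.23, and H2-Eb1 by 0.37 and 0.39 in the same 2 contrasts. With anti-PD-L1 over untreated, the members above the level limit lay between -0.35 and 0.29. H2-DMa (-0.28 in WT, 0.02 in KO), H2-Ab1 (-0.15 in WT, 0.11 in KO), H2-Aa (0.13 in WT, -0.04 in KO) and H2-DMb1 (-0.35 in WT, 0.10 in KO) had values on either side of 0. Ciita, under the limit, did too (-0.34 in WT, 0.52 in KO). Cd74 (0.29 in WT, 0.15 in KO) and H2-Eb1 (0.02 in WT, 0.04 in KO) lay above 0 in both. The median over the 6 members was 0.29, 0.41, -0.07 and 0.07 in the order KO over WT untreated, KO over WT with anti-PD-L1, anti-PD-L1 over untreated in WT and anti-PD-L1 over untreated in KO, against -0.05, 0.07, -0.06 and 0.06 over all genes tested. Of 7 interferon-induced genes past the limit in macrophage-like cells, 3, 6, 3 and 4 were called higher in these contrasts, and of 9 class I presentation genes 1, 0, 0 and 0. The shares of all genes tested that were called higher were 13.1%, 10.0%, 13.9% and 7.35%.

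In melanoma-like cells the libraries stood further apart. Cd74 was read at 3005 CPM (interval 2920 to 3092) in KO anti-PD-L1, 2172 (2119 to 2225) in KO untreated, 1635 (1578 to 1693) in WT anti-PD-L1 and 671 (655 to 687) in WT untreated. WT untreated was the lowest and KO anti-PD-L1 the highest, and no intervals overlapped. H2-Aa followed the same order at 1148, 758, 570 and 256 CPM, H2-Eb1 at 553, 333, 265 and 127 CPM, and H2-Ab1 at 378, 245, 193 and 115 CPM. H2-DMa was read at 217, 159, 123 and 76.9 CPM and H2-DMb1 at 237, 190, 175 and 108 CPM. All 6 members above the level limit thus stood in the order KO anti-PD-L1, KO untreated, WT anti-PD-L1, WT untreated. Ciita did not, with WT anti-PD-L1 lowest at 4 UMIs.

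In melanoma-like cells 6 of 6 members were called higher in KO over WT untreated, where 6.36% of the 5506 genes tested were. Cd74 was 3.24-fold higher (1.70 on the log2 scale, interval 1.65 to 1.74), H2-Aa 1.56, H2-Eb1 1.39, H2-Ab1 1.10, H2-DMa 1.05 and H2-DMb1 0.82. With anti-PD-L1, 5 of 6 were called higher in KO over WT, against 6.70% of genes, led by H2-Eb1 (1.06, interval 0.90 to 1.22) and H2-Aa (1.01), with Cd74 at 0.88. H2-DMb1, at 0.44 (0.22 to 0.65), was not called. This contrast rests on 50 melanoma-like cells of KO anti-PD-L1 and 69 of WT anti-PD-L1. The part of the libraries' cell composition in both contrasts was not tested. The median over the members was 1.24 and 0.93 in these contrasts, against 0.00 and -0.02 over all genes.

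Anti-PD-L1 over untreated gave 6 of 6 members called higher in WT, against 3.51% of genes. Cd74 was 2.44-fold higher (1.29 on the log2 scale, interval 1.22 to 1.35), H2-Aa 1.15, H2-Eb1 1.06, H2-Ab1 0.75, H2-DMb1 0.70 and H2-DMa 0.67. In KO, 3 of 6 were called higher, against 2.74% of genes: H2-Eb1 (0.73), H2-Ab1 (0.62) and H2-Aa (0.60). Cd74 (0.47), H2-DMa (0.45) and H2-DMb1 (0.32) were not called. The median was 0.90 in WT and 0.53 in KO, against -0.02 and -0.06 over all genes, and whether the response differed between genotypes was not tested, since there is 1 library of each kind.

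**Figure D3:**
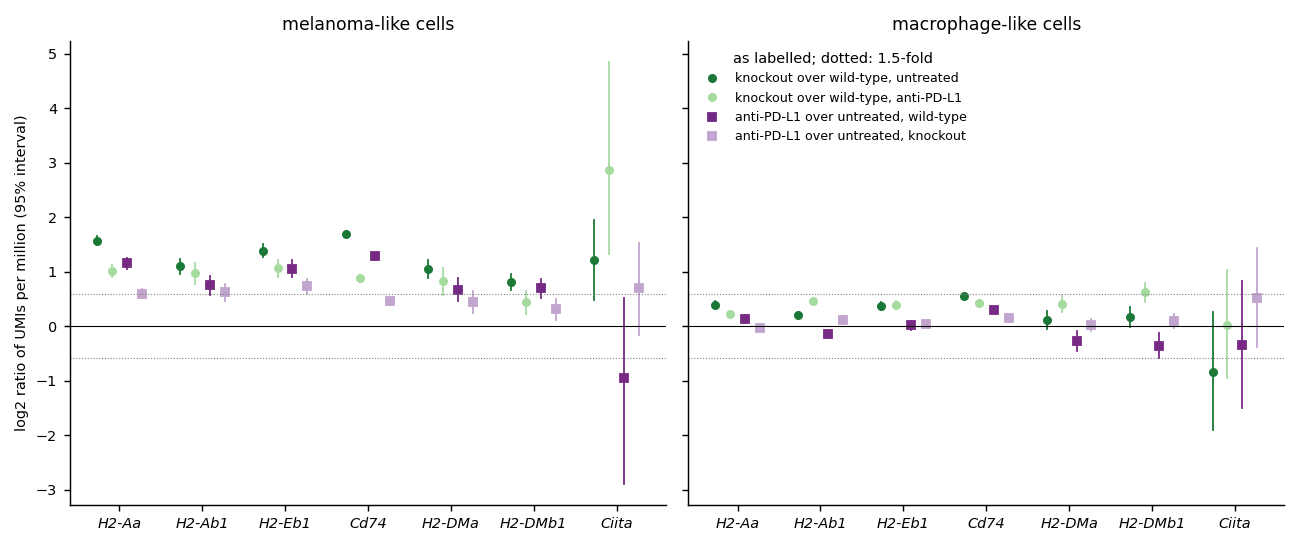
Log2 ratio of CPM (vertical) of each member in the 4 contrasts, in melanoma-like and macrophage-like cells, with exact 95% counting intervals and dotted lines at a 1.5-fold difference. Of the 6 members above the level limit, 20 of 24 melanoma-like points lie above the upper dotted line, up to 1.70 for Cd74, and 1 of 24 macrophage-like points does (H2-DMb1, 0.62).

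The order of the libraries was the same in both melanoma-like clusters. In cluster 0, Cd74 was 4325 CPM in KO anti-PD-L1, 3028 in KO untreated, 1868 in WT anti-PD-L1 and 656 in WT untreated, and in cluster 2 it was 2397, 1678, 1593 and 676 CPM. After thinning to 2000 UMIs a cell, 92.0% of melanoma-like cells of KO anti-PD-L1, 90.5% of KO untreated, 82.6% of WT anti-PD-L1 and 45.7% of WT untreated held a Cd74 UMI. Before thinning the shares were 100%, 98.9%, 100% and 71.2%, at median depths of 31763, 13918, 25574 and 10199 UMIs a cell. CD8 T cells of the same libraries, thinned alike, held a Cd74 UMI in 5.06%, 4.64%, 4.47% and 10.7% of cells. The shares in melanoma-like cells thus lay above those of T cells in every library. The median melanoma-like cell held 69 Cd74 UMIs in KO anti-PD-L1, 23 in KO untreated, 36 in WT anti-PD-L1 and 3 in WT untreated.

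Transcripts of macrophages were a small part of the UMIs of the melanoma-like class, but were not rare among its cells. Of cells with at least 10 Cd74 UMIs, 36.0% in KO anti-PD-L1 and 20.5% in KO untreated held a UMI of a C1q gene. The share was 20.8% in WT anti-PD-L1 and 18.1% in WT untreated. C1qa stood at 0.097%, 0.10%, 0.051% and 0.18% of its macrophage-like level in KO anti-PD-L1, KO untreated, WT anti-PD-L1 and WT untreated, and Lyz2 at 0.19%, 0.29%, 0.071% and 0.17%. In the same order, C1qb stood at 0.26%, 0.14%, 0.075% and 0.17%, and C1qc at 0.23%, 0.20%, 0.045% and 0.15%. Both were thus higher in KO than in WT with anti-PD-L1, as the members were. Cd74 stood at 16.7%, 13.4%, 12.1% and 6.09% and H2-DMb1 at 33.8%, 29.1%, 38.3% and 18.5% of theirs. Apoe, which is on the macrophage list, stood at 6.67% to 14.6%. The macrophage list summed to 1076, 1098, 739 and 968 CPM with 9, 11, 7 and 11 of its 11 genes detected. Apoe alone made up 986, 1019, 716 and 908 CPM of these sums. The dendritic list summed to 49.98, 78.65, 71.43 and 97.89 CPM. The part of macrophage or dendritic transcripts in the members' values was not tested. Leaving out every melanoma-like cell with a UMI of a C1q gene, an alternative added after the data were seen, left 16 of 24 calls where 20 of 24 had been made. H2-DMa then stood at 0.44 in KO over WT with anti-PD-L1, and H2-Aa (0.43), H2-Ab1 (0.42) and H2-Eb1 (0.43) fell under 1.5-fold in anti-PD-L1 over untreated in KO. A mean over cells of each cell's own CPM gave 17 calls, with Cd74 (0.41), H2-Ab1 (0.47) and H2-DMa (0.40) under the limit in KO over WT with anti-PD-L1.

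The members did not stand in one ratio across classes. Per UMI of H2-Ab1, melanoma-like cells held 7.94 UMIs of Cd74 in KO anti-PD-L1, 8.85 in KO untreated, 8.47 in WT anti-PD-L1 and 5.85 in WT untreated. Macrophage-like cells held 2.27, 2.20, 2.33 and 1.71, and dendritic-like cells 1.89, 2.01, 2.04 and 1.41. Every melanoma-like value exceeded every value of the other 2 classes. H2-Aa per H2-Ab1 was 3.03, 3.09, 2.96 and 2.23 in melanoma-like cells, against 0.82, 0.90, 0.96 and 0.79 in macrophage-like cells. H2-DMb1 per H2-Ab1 was 0.63, 0.78, 0.91 and 0.94 in melanoma-like cells. Both I-A chains were thus unevenly represented in 3′ tags of melanoma-like cells, and tags of different genes are not captured alike, so only the change between classes can be read.

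**Figure D4:**
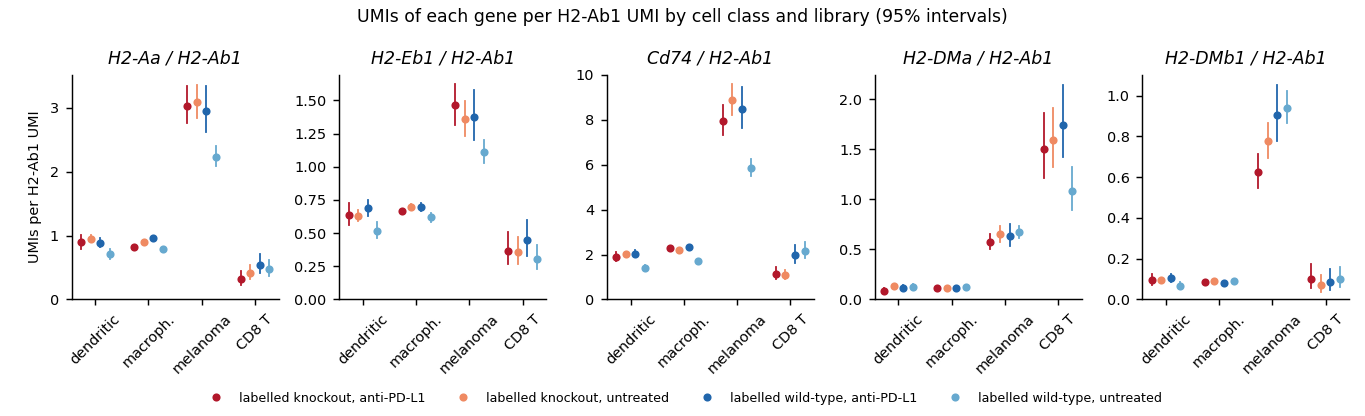
UMIs of 5 members per UMI of H2-Ab1 (vertical axis, from 0) in the 4 classes, 1 point per library with its exact 95% counting interval. Cd74 per H2-Ab1 lies at 5.85 to 8.85 in melanoma-like cells and at 1.71 to 2.33 in macrophage-like cells.

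Other genes of class II control and of interferon and class I pathways were counted from lists. In melanoma-like cells, 7 of the 9 class I presentation genes past the level limit were called higher in KO over WT untreated and none lower, 3 of 9 in KO over WT with anti-PD-L1, 3 of 9 in anti-PD-L1 over untreated in WT and 1 of 9 in KO. Psmb8, an immunoproteasome subunit, had log2 ratios of 1.03, 1.01, 0.37 and 0.34 in these 4 contrasts, and B2m, the light chain of class I, 0.71, 0.41, 0.44 and 0.13. Of 6 interferon-induced genes, 5, 2, 3 and 1 were called higher and 0, 1, 0 and 2 lower. Cd274, which encodes PD-L1, was called higher in all 4 contrasts (1.07, 1.07, 1.04 and 1.05), whereas Cxcl9 was called higher in KO over WT untreated (2.68) and in anti-PD-L1 over untreated in WT (2.01), and lower in KO over WT with anti-PD-L1 (-0.60) and in anti-PD-L1 over untreated in KO (-1.27). Of the 4 interferon-γ signalling genes past the limit, 1, 0, 1 and 1 were called higher. Irf1, a transcription factor that acts on Ciita, had ratios of 0.59, 0.54, 0.75 and 0.69. Of the 4 endosomal genes, Ifi30, which reduces disulphides in antigens, was called lower in all 4 contrasts (-1.14, -0.96, -0.84 and -0.67). Of the regulators, Rfxap and Nfyc were past the level limit. Rfxap, a subunit of the RFX complex, was called in no contrast. Nfyc, a subunit of NF-Y, was called lower in KO over WT untreated (-0.98) and higher in anti-PD-L1 over untreated in KO (0.64). Of all genes tested in this class 6.36%, 6.70%, 3.51% and 2.74% were called higher and 4.25%, 8.75%, 2.76% and 4.54% lower in the 4 contrasts.

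Over the 13 pairs of a library and 1 of these 4 classes with at least 20 cells, the mean log2 level of the members was followed most closely by Plbd1 (Pearson r = 0.996), Tifa (0.991), Serp1 (0.989), Slamf8 (0.987) and Hfe (0.984) among 5278 genes. The other classes were left out. The pairs share libraries, and the members' levels differ between classes in each of them.

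CD8 T cells held traces. Cd74 was read at 20.9 CPM (168 UMIs) in KO anti-PD-L1, 26.9 CPM (215) in KO untreated, 36.4 CPM (299) in WT anti-PD-L1 and 91.8 CPM (445) in WT untreated. That is 0.12%, 0.17%, 0.27% and 0.83% of the level in macrophage-like cells of the same library. H2-Ab1 stood at 0.23%, 0.33%, 0.32% and 0.66%, H2-Aa at 0.09%, 0.15%, 0.18% and 0.40%, H2-Eb1 at 0.13%, 0.17%, 0.21% and 0.33%, and H2-DMb1 at 0.27%, 0.27%, 0.35% and 0.74%. The complement genes C1qa, C1qb and C1qc, which T cells should lack, stood at 0.07% to 0.11% in all 4 libraries. Apoe stood at 0.16%, 0.14%, 0.10% and 0.19%, and Lyz2 at 0.09%, 0.17%, 0.07% and 0.07%. In KO anti-PD-L1, Cd74, H2-Aa and H2-Eb1 lay below Apoe, and in KO untreated Cd74 and H2-Aa lay at or below Lyz2. The same values lay above those of C1qa, C1qb and C1qc in their library, and their source was not tested. In both WT-labelled libraries these 5 members lay above all 5 macrophage genes. Ciita gave 1, 1, 5 and 1 UMIs in the 4 libraries, where 3 UMIs are the limit that a count of 0 allows.

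H2-DMa was the exception. It was read at 27.5 CPM (interval 24.0 to 31.4) in KO anti-PD-L1, 39.2 (35.0 to 43.8) in KO untreated, 32.2 (28.5 to 36.4) in WT anti-PD-L1 and 46.0 (40.2 to 52.5) in WT untreated T cells. That is 3.11%, 4.49%, 4.84% and 5.71% of the macrophage-like level, above every other member in each library, although the intervals of Ciita reached 3.76% to 8.89%. Its partner H2-DMb1 was read at 1.9, 1.8, 1.6 and 4.3 CPM. Per UMI of H2-Ab1, T cells held 1.503, 1.589, 1.743 and 1.088 UMIs of H2-DMa, against 0.11 to 0.13 in macrophage-like cells, so the T cell traces were not in the macrophage ratio. After thinning to 2000 UMIs, 5.16%, 7.03%, 6.29% and 9.97% of T cells held an H2-DMa UMI (17.8%, 15.9%, 16.6% and 16.7% before thinning), against 1.07%, 1.16%, 0.53% and 1.42% with a C1qa UMI. Brd2, the gene whose annotation overlaps H2-DMa, was read at 82.1, 86.7, 87.5 and 54.9 CPM in T cells and at 84.6, 93.3, 92.4 and 51.9 CPM in macrophage-like cells, and its part in the H2-DMa counts was not tested.

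**Figure D5:**
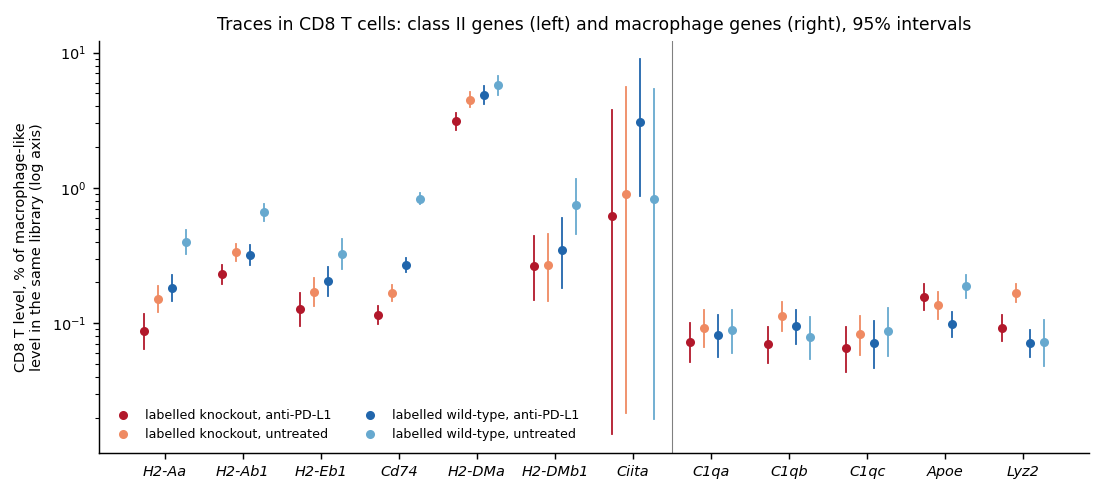
Level in CD8 T cells as a percent of that in macrophage-like cells of the same library (log axis), for the members and for 5 macrophage markers, with exact 95% counting intervals. H2-DMa lies at 3.11% to 5.71%, the other members with more than 5 UMIs at 0.09% to 0.83%, and C1qa at 0.07% to 0.09%.

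The traces were uneven among cells. At least 1 UMI of a member was held by 423 T cells of KO anti-PD-L1, 575 of KO untreated, 441 of WT anti-PD-L1 and 466 of WT untreated. Cells with at least 5 such UMIs numbered 9, 13, 20 and 29, and held 11.7%, 12.1%, 33.9% and 39.5% of all member UMIs in T cells. These shares describe each library and were not compared between genotypes. Summed over the 9 melanoma markers, T cells held 18.2 CPM in KO anti-PD-L1, 31.6 in KO untreated, 23.5 in WT anti-PD-L1 and 105 in WT untreated, and the part of this in their Cd74 was not tested. The T cell class was not compared between libraries as a whole, since haemoglobin genes led clusters 1 and 14 and genes of the dendritic or monocyte list stood among the leading genes of clusters 3, 8 and 12. Clusters 4, 5, 7 and 13 had no such genes among their leading ones. Pooled over libraries, H2-DMa was read at 62.5 CPM in cluster 4, 28.0 in cluster 5, 38.0 in cluster 7 and 10.9 in cluster 13, and Cd74 at 39.3, 29.2, 75.1 and 22.6 CPM. The library with the highest Cd74 was not the same in each. It was WT anti-PD-L1 in cluster 4 (83.3 CPM, 35 UMIs), WT untreated in cluster 5 (116 CPM, 4 UMIs) and in cluster 7 (88.3 CPM, 153 UMIs), and KO anti-PD-L1 in cluster 13 (33.1 CPM, 20 UMIs).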

How the data were processed

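The 4 single-cell libraries were droplet-based 3′ tag libraries (10x Chromium, per the labels' protocols). The authors deposited tables of raw UMI counts per barcode and gene. The submitters' processing notes list, without roles, the build mm10 and DESeq2, HTSeq, bedtools, Genrich 0.5, Bowtie2, HISAT2 and Trim Galore 0.5.0. How UMIs were counted and cells called is not stated there or in the labels. Each table lists most barcodes again with other counts. The listing with more barcodes was used and the other tried as an alternative. The 8 RNA and 8 ATAC samples were not analysed here.

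Cells needed 500 genes or more and no more than 10% mitochondrial UMIs. Cells were clustered on 2000 variable genes without class II genes (30 components, 15 neighbours, Leiden resolution 1.0, and 1.5 within myeloid cells; scanpy 1.11.5, igraph 0.11.9) and named from marker lists. Thresholds of naming were set after the data were seen, and names rebuilt here may differ from the study's. A check counted markers among the top 10 genes of each cluster by fold over all other cells. A class failed if any of its clusters had more markers of another class than of its own. The CD8 T class failed, and the melanoma-like and macrophage-like classes passed. Macrophage-like subclusters had been named by the same rule, so they could not fail. Melanoma-like cluster 0 passed with 0 markers of either kind, so a pass does not check these names. A mixed T and myeloid class of 151 cells was set aside. No doublet caller was run, and leaving out cells with 2 UMIs of markers of each of 2 classes was an alternative.

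UMIs were summed per class and library. Intervals are exact Poisson (levels), conditional binomial (ratios) or Clopper-Pearson (shares) ones from scipy 1.17.1. Class differences used log2(CPM + 1). The calls were tested on simulated data. The members and gene lists were chosen with earlier results of these data known. Named genes are the members, the genes of these lists and the 5 genes most like the members in level.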

Additional observations from a re-analysis of the deposited data

How the results depend on the processing

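Alternative values were set against the main ones. Contrasts were marked by whether the call changed, and counts by whether they stayed within 1.5-fold. Levels, shares and class or Cxcl9 differences were marked by whether they stayed within 1 SD. By these rules 2195 values were unchanged, 18 calls were lost, 13 were gained and 42 values moved. None was marked reversed, which was possible only for called contrasts and for differences larger than their SD. The 1 macrophage-like call became 0 with the other listing and at resolution 2.0, 2 of 28 with no CPM limit (Ciita added, lower in KO over WT untreated at -0.84), 2 with monocyte-like and unnamed myeloid cells added, and 3 without subcluster 2. The 20 melanoma-like calls of 24 were 16 to 20 under the alternatives that kept a CPM limit, fewest without cells with a C1q UMI. With no CPM limit they were 24 of 28, where Ciita added 3 higher calls and 1 lower (-0.95 in anti-PD-L1 over untreated in WT, on 4 and 41 UMIs). The level of C1qa in CD8 T cells, 0.0839% of the macrophage-like level as the mean of the libraries, was 0.0663% with the other listing, 0.0602% without cells holding markers of both of 2 classes, 0.0972% as a mean over cells and 0.0726% in T cells with under 5 member UMIs. The share of T cells with an H2-DMa UMI was 5.16% to 9.97% by library after thinning and averaged 16.7% without it. Without each library in turn, the uniform class comparisons stayed at 21 of 21, those with dendritic-like cells at 20 to 21, and the members higher in Cxcl9+ cells at 6 to 7. The causes were not tested. The subcluster, added-class, C1q and 5-UMI alternatives were chosen after seeing the data. No paired analysis was possible because each group is 1 library, whereas classes and Cxcl9+ cells were compared within libraries. Depth limits Ciita most, at 1 to 41 UMIs per class and library, and 9 to 14 cells carry the dendritic-like values of 3 libraries.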

Other observations

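Of the other genes of peptide loading, H2-DMb2 and H2-Oa stood higher in dendritic-like than in macrophage-like cells of all 4 libraries. H2-DMb2, the paralog of H2-DMb1, was read at 244 CPM in KO anti-PD-L1, 258 in KO untreated, 280 in WT anti-PD-L1 and 499 in WT untreated dendritic-like cells, against 8.17, 10.52, 5.28 and 43.0 CPM in the macrophage-like cells of these libraries. H2-Oa, whose product with that of H2-Ob holds back H2-DM, was read at 163, 192, 179 and 249 CPM in dendritic-like cells, against 4.45, 1.402, 5.28 and 19.7 CPM in macrophage-like cells. These rest on 8, 38, 16 and 12 UMIs of H2-Oa in dendritic-like cells, against 6, 2, 4 and 11 UMIs in macrophage-like cells. CD8 T cells held 7.84, 13.3, 10.8 and 6.60 CPM of H2-Oa (63, 106, 89 and 32 UMIs). Their interval lay above the macrophage-like one in KO untreated (10.9 to 16.1 CPM, against 0.17 to 5.07 CPM) and below it in WT untreated (4.52 to 9.32 CPM, against 9.83 to 35.2 CPM), and overlapped it in the other two libraries. H2-Eb2, a class II β chain gene, gave 12, 6, 5 and 6 UMIs in melanoma-like cells (7.59, 2.01, 2.61 and 0.59 CPM) and 0 UMIs in macrophage-like cells of all 4 libraries, which allows up to 2.23, 2.10, 3.96 and 5.37 CPM there. The melanoma-like interval lay above that limit in KO anti-PD-L1 alone, at 3.92 to 13.3 CPM.

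Monocyte-like cells, led by Chil3 and Il1b, held 32094 CPM of Cd74 in KO anti-PD-L1, 29959 in KO untreated, 17485 in WT anti-PD-L1 and 16532 in WT untreated, in 15, 42, 13 and 3 cells. H2-Ab1 was read at 16388, 14820, 5769 and 5926 CPM in them. H2-Oa gave 0 UMIs in these cells in all 4 libraries, where 3 UMIs are the limit that a count of 0 allows. The mixed class, which holds T cell and myeloid transcripts together, read 11380, 11364, 10549 and 7029 CPM of Cd74.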
